A study of Drosophila melanogaster with 16 samples.

Results

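The cwo allele was compared with its control on a high-sugar diet, using 8 of the 16 RNA-seq libraries of the series: the 4 from whole larvae labelled mutant on high sugar and the 4 from control larvae on high sugar. They were chosen by the genotype and diet in the sample labels, not by any measured value. The tested larvae carried cwo B9, an allele of clockwork orange, and the control is labelled CTRL with no strain named. All larvae had first spent 24 h at 25 °C on low-sugar food, made with 10% yeast. As early second instars they were moved for 8 h to the same yeast with 15% sucrose and 2% blue food dye. The other 8 libraries, 4 labelled mutant and 4 control, came from larvae moved to fresh low-sugar food with the dye. They entered the fit so that the genotype differences on both diets could be compared. The labels do not say whether the replicates were separate cultures, how many larvae each pooled, what lesion B9 is, or whether the strains shared a genetic background. The p-values therefore reflect only how far these samples vary, which could be technical variation, and strain and allele cannot be told apart.

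Clockwork orange is a basic helix-loop-helix repressor of the Orange family. It binds E-boxes, the sites used by the clock activators CLOCK and CYCLE, and dampens the transcription that they drive, its own gene and timeless included. Mondo, with its partner Mlx (bigmax in flies), is the sugar sensor of the fat body, gut and other larval tissues. The pair also belongs to the basic helix-loop-helix class, is related to mammalian ChREBP, and drives genes of glycolysis and fat synthesis together with regulators such as sugarbabe and cabut. The series is titled as a study of how clockwork orange controls transcription in response to sugar.

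Levels are given in CPM, the unit in the name of the deposited table. Differences are log2 differences on the log2(CPM + 0.5) scale, mutant-labelled minus control, ± SE from limma, which understates the change of low genes. A gene was called where limma's Benjamini-Hochberg adjusted p over 9837 tested genes was under 0.05. Depth in listed genes, recovered from the smallest step of each column, was 48512896 to 50949688 reads in the mutant-labelled libraries and 49049882 to 51536303 reads in the control libraries on high sugar, if 1 step is 1 read. These depths are above the mean depth the labels give, so a step may not be a single read. In the principal components of these 8 libraries, the leading one held 75.2% of the variance and separated the genotypes. The next held 12.1%, and control library 4 lay apart on it. That library and mutant-labelled library 3 had the highest level of Tweedle genes, cuticle genes of the moult, both at a mean log2 level of 5.72, against 3.36 to 4.70 in the other 6. roX1, an RNA made in males, ran from 134 to 246 CPM in mutant-labelled libraries and from 61.8 to 190.1 CPM in control libraries. Its relative roX2 was higher in mutant-labelled larvae by 1.05 ± 0.30 (adjusted p = 0.011), with no overlap, but it did not pass without mutant-labelled library 3 and control library 4 (adjusted p = 0.0841), and roX1 passed only without control library 2 (adjusted p = 0.0184). Refits without those 2 libraries and with the Tweedle score or roX1 level as a covariate, all chosen after seeing the data, called 3417, 4122 and 3850 genes. Where they end or add a call of a gene named below, this is given beside it. The part of moult stage and of the share of males in other results was not tested.

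**Figure D1:**
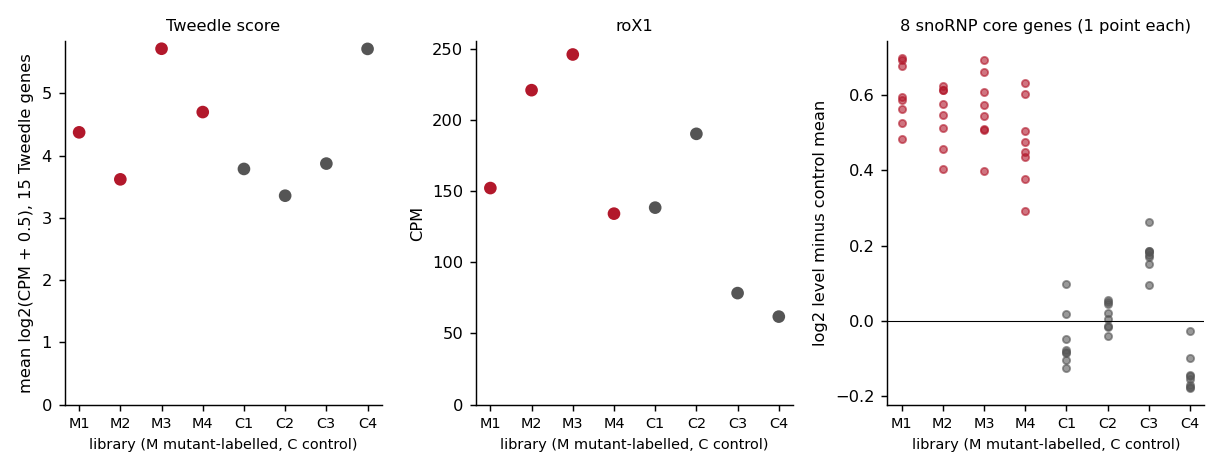
The mean log2(CPM + 0.5) of 15 Tweedle genes, the CPM of roX1 and the log2 level of 8 snoRNP core genes minus their control mean are plotted for each high sugar library, M for mutant-labelled and C for control. Mutant-labelled library 3 and control library 4 have the highest Tweedle scores, both 5.72, while all 8 snoRNP genes lie higher in every mutant-labelled library than in any control library.

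The targeted gene itself was read as a check of the labels. cwo (FBgn0259938, 3R 10388258 to 10400752, plus strand, BDGP6) had 286, 267, 291 and 272 CPM in mutant-labelled libraries, against 64.0, 72.8, 71.2 and 67.6 CPM in control libraries. All 4 mutant-labelled libraries were far above the highest control library, at a log2 difference of 2.01 ± 0.09 (adjusted p = 9.56e-11). The protein dampens its own gene, as given above, so this sign does not show what the allele does to the product. A count over the whole gene checks nothing about the lesion, and every direction given here rests on the label. white (w), the pigment transporter often carried as a transgene marker, had 534, 542, 553 and 530.2 CPM in mutant-labelled libraries, against 0.385, 0.159, 0.869 and 0.383 CPM in control libraries. It separated the labels more widely than any other tested gene, at a log2 difference of 9.20 ± 0.16 (adjusted p = 3.73e-15).

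Genotype moved a large part of the transcriptome on high sugar. Of the 9837 genes tested, 3934 (40.0%) passed, with 2073 (21.1%) higher and 1861 (18.9%) lower in mutant-labelled larvae. At least 2-fold changes were far fewer, at 221 genes higher (2.25%) and 203 lower (2.06%). The median difference over all tested genes was 0.0025. In 3942 genes (40.1%) the 4 mutant-labelled and 4 control libraries did not overlap, and 3459 of all tested genes (35.2%) also passed. Because so many genes passed, the count in each gene list below is to be read against 21.1% higher and 18.9% lower. In whole larvae, fewer cells of a type and less RNA per cell cannot be told apart.

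**Figure D2:**
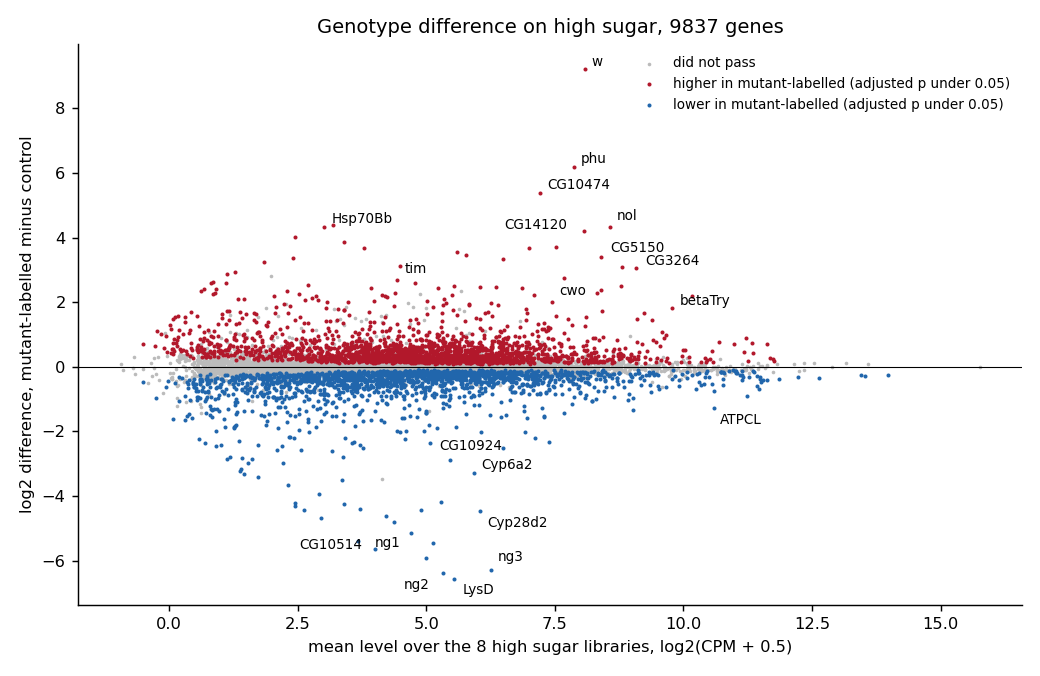
Each point is 1 of 9837 tested genes, by mean level over the 8 high sugar libraries in log2(CPM + 0.5) and by log2 difference, mutant-labelled minus control. The 2073 genes called higher are red, the 1861 called lower are blue, and the most extreme are w at the top and the lysozyme gene LysD with the salivary ng genes at the bottom.

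Of clock genes that CLOCK and CYCLE drive, tim and Pdp1 were higher. timeless (tim, FBgn0014396, 2L 3493986 to 3508119), whose protein represses CLOCK and CYCLE, had 43.8, 33.3, 35.3 and 35.6 CPM in mutant-labelled libraries, against 4.84, 5.79, 5.26 and 5.32 CPM in control libraries. The groups did not overlap and the log2 difference was 2.69 ± 0.10 (adjusted p = 1.18e-11). Pdp1, an activator of the second clock loop with further roles in growth, had 391, 373, 354 and 329 CPM in mutant-labelled libraries, against 284, 286, 283 and 285 CPM in control libraries. Every mutant-labelled library was again above every control library, by a smaller margin of 0.34 ± 0.05 (adjusted p = 1.35e-04). vrille (vri), the repressor of that loop, had 4.58, 4.31, 5.08 and 4.56 CPM in mutant-labelled libraries, against 2.81, 3.09, 2.75 and 2.92 CPM in control libraries. Its groups did not overlap either, but its difference of 0.60 ± 0.29 did not pass (adjusted p = 0.116). It passed in a fit of only the 8 high sugar libraries, with an adjusted p of 1.18e-04. The activator gene cyc differed by -0.18 ± 0.12 without passing (adjusted p = 0.266), though it passed as lower with roX1 as a covariate (adjusted p = 0.0122), while Clk and cry were not analysed here. Of 5 core clock genes tested, 3 were higher, 0 were lower and 2 did not pass, with cwo counted among them. Among 12 kinases and degradation factors that act on clock proteins, 2 passed, both higher: CkIIalpha by 0.21 ± 0.06 and dco, the fly casein kinase 1, by 0.15 ± 0.05 (adjusted p = 0.0107 and 0.0248). The call of dco, whose groups overlapped, did not hold without mutant-labelled library 1, 2 or 3 or control library 4, left out singly, with adjusted p from 0.0514 to 0.0842. It was also lost after quantile normalization (0.122), in the fit of only the 8 high sugar libraries (0.0537), without mutant-labelled library 3 and control library 4 together (0.183) and with roX1 as a covariate (0.193), each value an adjusted p.

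**Figure D3:**
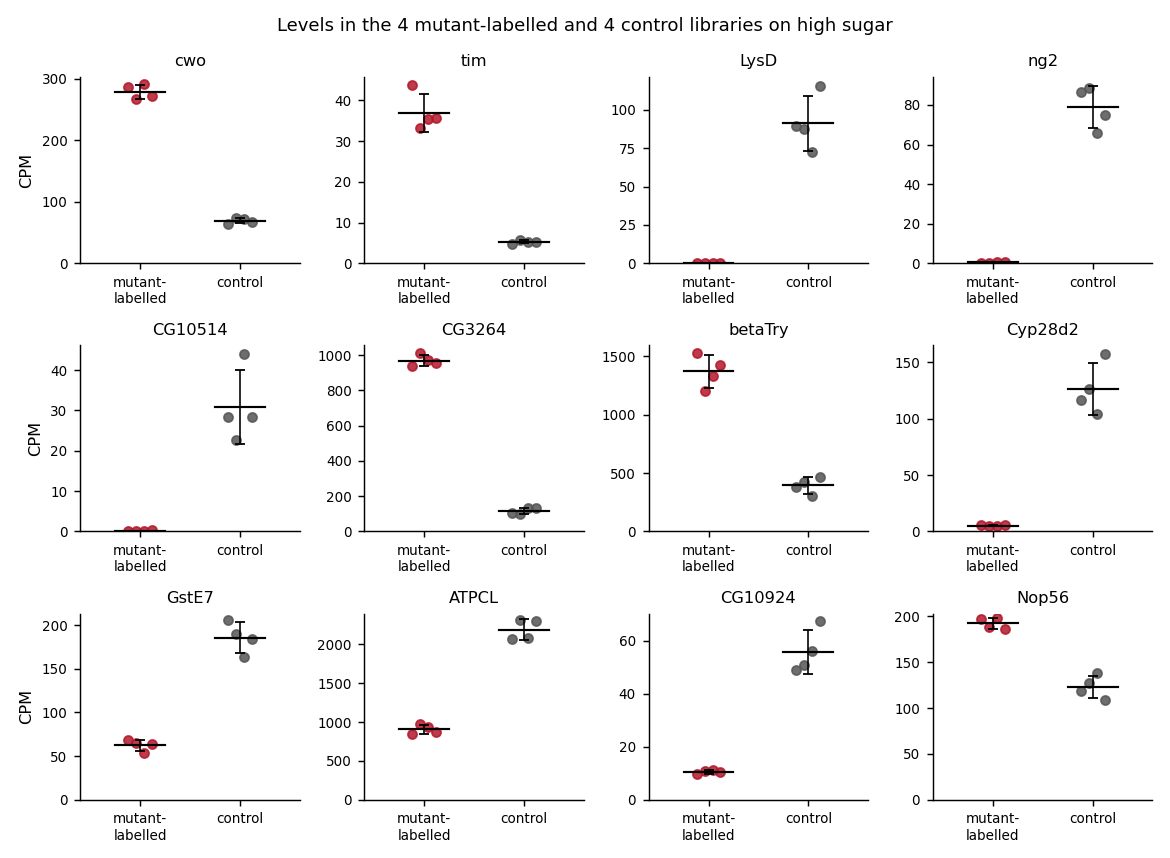
CPM of 12 genes named in the text in each of the 4 mutant-labelled (left) and 4 control (right) libraries on high sugar, with the mean (bar) and SD (whiskers) of each group, n = 4. In none of the 12 panels do the groups overlap, and LysD, ng2 and CG10514 lie near 0 in every mutant-labelled library. LysD, ng2, CG10514 and Cyp28d2 were named by a rule that required no overlap, which held for 40.1% of all tested genes.

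Among the largest increases, chosen by size among called genes of at least 5 CPM with no overlap, w was followed by phu, which had 387, 465, 469 and 514 CPM in mutant-labelled libraries, against 8.00, 4.62, 8.96 and 3.28 CPM in control libraries. CG10474 had 275, 337, 343 and 203 CPM in mutant-labelled libraries, against 5.49, 5.75, 10.6 and 4.64 CPM in control libraries, and CG14120 had 580.2, 569.9, 403 and 476 CPM in mutant-labelled libraries, against 23.4, 23.2, 23.5 and 39.8 CPM in control libraries. The groups lay far apart for all 3. Alp2, which carries the name of an alkaline phosphatase, and CG18417 were near 0 in control larvae. Alp2 averaged 9.83 ± 1.47 CPM in mutant-labelled and 0.137 ± 0.0589 CPM in control libraries, while CG18417 averaged 17.0 ± 0.599 CPM in mutant-labelled and 0.340 ± 0.136 CPM in control libraries (SD, n = 4 each). The photolyase gene phr6-4, whose product repairs UV damage to DNA with light, had 19.2, 20.02, 18.5 and 19.5 CPM in mutant-labelled libraries, against 1.11, 0.754, 0.972 and 0.660 CPM in control libraries. The other photolyase gene, phr, went the other way, at 2.15 ± 0.321 CPM in mutant-labelled and 17.8 ± 0.710 CPM in control libraries (SD, n = 4 each), a difference of -2.80 ± 0.08 (adjusted p = 6.68e-13). It is not among the genes the naming rule gives and was picked after its values were seen. The other large increases by the rule were nol at 4.31 ± 0.30, Hsp70Bb at 4.34 ± 0.25, CG32751 at 3.71 ± 0.21, FucTC, named for a fucosyltransferase, at 3.67 ± 0.12, and CG14851 at 3.67 ± 0.79. The least certain of them was CG14851 (adjusted p = 0.00159), with 179, 161, 221 and 296 CPM in mutant-labelled libraries, against 17.4, 2.99, 8.36 and 132 CPM in control libraries. Control library 4 stood far above the other 3 control libraries for that gene.

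The largest decreases included genes of the gut and salivary gland. LysD (FBgn0004427, 3L 1210717 to 1211196), a lysozyme that breaks bacterial cell walls in the midgut, had 0.489, 0.404, 0.477 and 0.436 CPM in mutant-labelled libraries, against 89.5, 87.9, 72.6 and 116 CPM in control libraries. No mutant-labelled library reached 1 CPM, and the log2 difference was -6.57 ± 0.12 (adjusted p = 6.58e-15). The neighbouring LysB had 5.21, 4.12, 5.14 and 4.72 CPM in mutant-labelled libraries, against 17.0, 17.8, 15.2 and 24.6 CPM in control libraries, a smaller gap of -1.83 ± 0.20 with no overlap. LysC, in the same run of genes, was at 0.0638, 0, 0.0596 and 0.0198 CPM in mutant-labelled and 11.6, 10.6, 9.10 and 13.7 CPM in control libraries. LysS and LysE differed less, at 191 ± 26.0 and 24.6 ± 3.76 CPM in mutant-labelled larvae against 257 ± 44.5 and 35.0 ± 6.998 CPM in control larvae, with differences of -0.42 ± 0.12 and -0.49 ± 0.17. All 5 tested lysozyme genes were called lower, 3 of them without mutant-labelled library 3 and control library 4. The call of LysE, whose groups overlapped, was also lost without mutant-labelled library 2 or 3 or control library 1, 2 or 4 alone (adjusted p from 0.0537 to 0.0982) and with array weights (adjusted p = 0.0564). With roX1 as a covariate neither LysS nor LysE passed (adjusted p = 0.101 and 0.0838). The Lys genes are close copies, so reads could be split between them and the single values are uncertain.

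The ng genes, expressed in the salivary gland, differed on a like scale. ng2 had 0.298, 0.324, 0.536 and 0.714 CPM in mutant-labelled libraries, against 86.7, 88.4, 65.8 and 75.2 CPM in control libraries. ng3 had 1.0002, 1.33, 1.13 and 2.50 CPM in mutant-labelled libraries, against 177, 161, 114 and 148 CPM in control libraries. ng1 had 1.11, 0.768, 0.516 and 1.53 CPM in mutant-labelled libraries, against 55.7, 47.9, 44.8 and 51.9 CPM in control libraries, and none of the 3 overlapped between genotypes. The differences were -6.37 ± 0.14, -6.28 ± 0.23 and -5.14 ± 0.17 for ng2, ng3 and ng1 (adjusted p = 4.74e-14, 1.09e-11 and 3.70e-12). ng1 and ng2 are near-identical, which makes their separate values uncertain. sage, a transcription factor of the salivary gland, was lower too, at 1.52 ± 0.118 CPM in mutant-labelled and 2.83 ± 0.0808 CPM in control libraries, a difference of -0.72 ± 0.08 (adjusted p = 4.36e-06). Other regulators of that gland did not pass: fkh differed by 0.01 ± 0.08 (adjusted p = 0.962) and CrebA by 0.09 ± 0.08 (adjusted p = 0.379). No Sgs glue gene was among the tested genes, and of 6 salivary gland markers 4 were lower and 0 higher. Their summed level was 73.4 to 80.0 CPM in mutant-labelled libraries and 294 to 394 CPM in control libraries. The 3 ng genes are in that set, and the part of the number of gland cells was not tested.

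Several of the other large decreases lay in runs of neighbouring genes. CG10514 had 0, 0.0607, 0.139 and 0.258 CPM in mutant-labelled libraries, against 28.3, 22.7, 43.9 and 28.3 CPM in control libraries. CG11892, beside it on 3R, had 0.489, 0.425, 0.298 and 0.972 CPM in mutant-labelled libraries, against 70.3, 37.8, 76.4 and 65.6 CPM in control libraries. Neither reached 1 CPM in any mutant-labelled library. They lie in a run from 25278427 to 25316116 on 3R (BDGP6) that holds 7 genes changed at least 2-fold, 6 of them lower and 1 higher. The neighbours CG12522 and CG32071 on 3L averaged 1.04 ± 0.551 and 0.0365 ± 0.0502 CPM in mutant-labelled against 67.8 ± 28.4 and 24.4 ± 12.9 CPM in control libraries (SD, n = 4 each). They share a run from 11101875 to 11134663 with nol, which was higher, so that 4 of its 7 genes were higher and 3 lower. The other named decreases were CG1304 at -4.80 ± 0.24, CG32581 (sordd2) at -4.67 ± 0.10, CG34278 at -4.61 ± 0.15 and the cytochrome P450 gene Cyp28d2 at -4.46 ± 0.13.

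Other genes with large changes lay in such runs too. Of 423 genes that were called, changed at least 2-fold and could be placed on the genome, 106 lay in 27 runs of at least 3 such genes no more than 20 kb apart. In 12 of the 27 runs all genes had the same direction. The same count was not made over all tested genes. Whether changed genes lie together, or share a direction, more than other neighbours was therefore not tested. The longest of these spanned 16264713 to 16320454 on 3L and held 9 genes, CG13060 and CG13041 among them, all higher. A run of 5 on 3R, from 30490074 to 30516980, was lower throughout and held PH4alphaSG1, PH4alphaSG2 and PH4alphaMP, genes named for prolyl 4-hydroxylases, enzymes that modify collagen-like proteins. Runs of the ng genes on X (4 genes), of Lys genes on 3L (3 genes) and of Mal-A6, Mal-A7 and Mal-A8 on 2R were lower throughout, and a run with Alp2 on 2R (4 genes) was higher throughout. Near cwo itself, 101 of 217 genes within 1 Mb passed (46.5%), against 39.9% of genes beyond 5 Mb. At least 2-fold changes were found in 18 of those 217 genes (8.30%), against 4.30% beyond 5 Mb. These shares are descriptions with no test, and the strains' sequence differences near the allele are not known from the labels. By chromosome arm the share called ran from 36.2% on X to 42.7% on 2R.

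Alkaline phosphatases, enzymes that strip phosphate at the surface of gut, tubule and other epithelia, were mostly much higher. CG3264 had 937, 1009, 974 and 953 CPM in mutant-labelled libraries, against 103, 101, 131 and 135 CPM in control libraries. CG10592 had 898, 873, 714 and 732 CPM in mutant-labelled libraries, against 97.7, 96.1, 87.8 and 96.7 CPM in control libraries. CG5150 had 706, 701, 510.1 and 554 CPM in mutant-labelled libraries, against 68.7, 58.8, 48.6 and 55.3 CPM in control libraries. The RefSeq annotation names these 3 Alp8, Alp10 and Alp9, and in each the lowest mutant-labelled library was far above the highest control library. CG3292 (Alp7) was higher by 2.75 ± 0.11 and Alp4, known from the Malpighian tubule and brain, by 0.94 ± 0.06 (adjusted p = 1.58e-11 and 1.87e-08). In total 10 of 11 tested genes of this family were higher and 1, Alp1 at -0.50 ± 0.14, was lower, with a median difference of 0.94. The list was chosen with this pattern known, so its count is not independent evidence.

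Digestive enzyme genes changed in both directions. The trypsin gene betaTry had 1529.5, 1201, 1325 and 1424 CPM in mutant-labelled libraries, against 384, 420.0, 301 and 468 CPM in control libraries. epsilonTry had 1174, 993, 1016 and 1139 CPM in mutant-labelled libraries, against 511, 561, 459.7 and 655 CPM in control libraries. Neither overlapped, and they were higher by 1.81 ± 0.11 and 0.99 ± 0.10 (adjusted p = 7.71e-09 and 1.24e-06). deltaTry went the other way, at -0.47 ± 0.10 (adjusted p = 0.00111). Of 10 trypsins 4 were higher and 3 lower, with 1 lower without mutant-labelled library 3 or 4 or control library 1, 2 or 4, left out singly. The Jonah genes encode serine proteases of the larval gut. Jon44E had 1067, 1059, 910.2 and 862 CPM in mutant-labelled libraries, against 324, 398, 321 and 391 CPM in control libraries. Jon65Ai was higher by 1.55 ± 0.13 and Jon66Ci by 1.07 ± 0.13, while Jon74E was lower, at 357 ± 60.5 CPM in mutant-labelled and 684 ± 50.8 CPM in control libraries. Among 16 tested Jonah genes 8 were higher and 5 lower. The median of the trypsins was 0.08 and that of the Jonah genes 0.22. The summed level of the trypsins was 2976 to 3631 CPM in mutant-labelled libraries and 1462 to 2015 CPM in control libraries, without overlap. That of the Jonah genes was 16193 to 19951 CPM in mutant-labelled libraries and 15503 to 19287 CPM in control libraries, with overlap.

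Starch and sugar digestion was split in the same way. The amylase genes Amy-d and Amy-p, near-identical copies that cut starch, averaged 11.4 ± 1.57 and 12.3 ± 0.870 CPM in mutant-labelled and 2.08 ± 0.284 and 8.42 ± 0.865 CPM in control libraries. Their differences were 2.20 ± 0.10 and 0.53 ± 0.08 (adjusted p = 2.18e-10 and 7.66e-05), though reads of such copies cannot be assigned with certainty. Maltases, which split maltose and sucrose, were among the lower genes. Mal-A7 had 9.26, 7.44, 7.25 and 7.66 CPM in mutant-labelled libraries, against 38.4, 45.7, 29.2 and 43.4 CPM in control libraries. Mal-A8 and Mal-A6 were lower, at -1.53 ± 0.23 and -1.06 ± 0.15 with no overlap. tobi, an alpha-glucosidase known as a target of insulin and glucagon-like signalling, had 0.596, 0.344, 0.635 and 0.615 CPM in mutant-labelled libraries, against 6.74, 8.57, 7.06 and 8.81 CPM in control libraries. It was the list's largest difference, at -2.99 ± 0.13 (adjusted p = 7.48e-11). Of 14 genes of this list 4 were higher and 6 lower. Of the 6 tested LMan genes, lysosomal alpha-mannosidases that trim sugar chains, 3 were higher, LManVI most at 0.74 ± 0.16 (adjusted p = 0.0016), and none was lower. Markers of gut cells were also read. Of 8 enterocyte markers 4 were higher and 1 lower. All of them except Npc2f are digestive enzymes already counted in the lists above, so this is not separate evidence. The summed level of these 8 markers, betaTry included, was 3136 to 3875 CPM in mutant-labelled libraries and 2040.2 to 2652 CPM in control libraries. Of 5 markers of copper cells, the acid-secreting cells of the midgut, 3 were higher, the homeobox gene lab at 0.35 ± 0.06 and the carbonic anhydrase gene CAH1 at 0.27 ± 0.05. Their summed level was 506 to 529.8 CPM in mutant-labelled libraries and 431 to 474 CPM in control libraries. The part of gut cell numbers in these values was not tested.

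The sugar sensor gene itself did not pass on this diet, while results for its leading targets were mixed. Mondo had 331, 309, 335 and 333 CPM in mutant-labelled libraries, against 297, 325, 308 and 333.6 CPM in control libraries. The groups overlapped and the difference of 0.05 ± 0.07 did not pass (adjusted p = 0.604). sugarbabe (sug), the zinc finger factor induced by sugar, had 126, 125, 129.7 and 131 CPM in mutant-labelled libraries, against 116, 113, 119.8 and 141 CPM in control libraries, also with overlap (0.07 ± 0.19, adjusted p = 0.811). bigmax differed by 0.01 ± 0.07 (adjusted p = 0.936). cabut (cbt), another zinc finger regulator downstream of Mondo, had 113, 107, 114 and 124 CPM in mutant-labelled libraries, against 122, 129, 136 and 138 CPM in control libraries. It was lower, at -0.20 ± 0.06 (adjusted p = 0.0233), with a small overlap. This call was lost without mutant-labelled library 1 or 2 or control library 3 or 4, left out singly (adjusted p from 0.0525 to 0.0731), without mutant-labelled library 3 and control library 4 together (adjusted p = 0.107) and with roX1 as a covariate (adjusted p = 0.0787). CCHa2, a peptide hormone of the fat body and gut that reports feeding to the brain, had 45.1, 43.7, 38.1 and 40.5 CPM in mutant-labelled libraries, against 66.6, 66.6, 74.2 and 79.4 CPM in control libraries. It was the list's clear difference, at -0.77 ± 0.08 (adjusted p = 2.23e-06) with no overlap. The activin-like ligand dawdle (daw) was higher by 0.22 ± 0.08 (adjusted p = 0.0344), with overlap. Its call was lost without mutant-labelled library 2, 3 or 4 or control library 1 or 3 alone (adjusted p from 0.067 to 0.112), and also after quantile normalization (adjusted p = 0.0808), without mutant-labelled library 3 and control library 4 together (adjusted p = 0.0618) and with roX1 as a covariate (adjusted p = 0.136). Of 6 tested genes of sugar sensing 1 was higher and 2 were lower, shares of 16.7% and 33.3%. Over all tested genes these shares were 21.1% and 18.9%. CCHa2 passed in each fit that left out 1 library.

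Of hormone and nutrient signalling, ImpL2, a secreted protein that binds insulin-like peptides and blocks them, had 142, 143, 148 and 124 CPM in mutant-labelled libraries, against 69.2, 71.2, 71.8 and 74.8 CPM in control libraries. Every mutant-labelled library was well above every control library (0.95 ± 0.10, adjusted p = 1.89e-06). AkhR, the receptor of the fly's glucagon-like hormone, had 18.0, 21.9, 21.6 and 25.3 CPM in mutant-labelled libraries, against 36.4, 36.7, 34.8 and 40.5 CPM in control libraries. It was lower, at -0.77 ± 0.09 (adjusted p = 9.64e-06), without overlap. Another binding protein of insulin-like peptides, Sdr, was lower, at -0.42 ± 0.10 (adjusted p = 0.00342). Of the insulin-like peptides of the brain, Ilp2 was higher by 0.25 ± 0.08 and Ilp5 lower, at -0.37 ± 0.13 (adjusted p = 0.0278 and 0.0346). Both of these calls were fragile: that of Ilp2 was lost without mutant-labelled library 1 or 4 or control library 1, 2 or 4 (adjusted p up to 0.0983), and that of Ilp5 without mutant-labelled or control library 1, 2 or 3 (adjusted p up to 0.113). The call of Ilp5 was also lost after quantile normalization (adjusted p = 0.0744), in the fit of only the 8 high sugar libraries (adjusted p = 0.0698) and with roX1 as a covariate (adjusted p = 0.124). Of 14 genes of this axis 3 were higher and 3 lower. In the list of TOR and ATF4 signalling, crc, which encodes ATF4, was lower, at -0.24 ± 0.03 and the stress protein gene Sesn at -0.34 ± 0.06, while Tsc1 and gig, the pair that restrains TOR, were higher by 0.20 ± 0.04 and 0.25 ± 0.07 (adjusted p = 1.41e-05, 1.59e-04, 0.00138 and 0.0135). The call of gig was lost without mutant-labelled library 3 and control library 4 together (adjusted p = 0.106) and with roX1 as a covariate (adjusted p = 0.11). In all, 2 of 19 were higher and 3 lower. Among 9 metabolic nuclear receptors and foxo, Hr38 stood out, at 5.63 ± 0.503 CPM in mutant-labelled and 2.25 ± 0.319 CPM in control libraries, a difference of 1.16 ± 0.14 (adjusted p = 1.06e-05). Hr96, a receptor that governs lipid uptake from the gut, was lower, at -0.27 ± 0.06 (adjusted p = 0.00124), and in total 1 was higher and 2 lower, the lower count being 1 without mutant-labelled library 4 or control library 3 or 4. Of 17 genes of activin and BMP signalling, 1, daw, was higher and 3 lower, the activin pathway's Smox at -0.20 ± 0.04 and the ligand gene myo at -0.21 ± 0.05.

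Genes of fat synthesis were lower in several steps. ATPCL, which makes the acetyl-CoA used for fat from citrate, had 844, 969, 937 and 874 CPM in mutant-labelled libraries, against 2067, 2309, 2080.4 and 2299 CPM in control libraries. Mutant-labelled larvae held less than the control in every library, a difference of -1.27 ± 0.09 (adjusted p = 2.59e-08). SREBP, a transcription factor of lipid synthesis, had 224, 224, 227 and 235 CPM in mutant-labelled libraries, against 311, 327, 305 and 315 CPM in control libraries. It was lower, at -0.47 ± 0.03 (adjusted p = 3.70e-08), and SCAP, which escorts it, at -0.69 ± 0.10 (adjusted p = 3.58e-05). The malic enzyme genes Men and Men-b, sources of NADPH, were lower, at -0.26 ± 0.05 and -0.17 ± 0.03. The elongase Elo68alpha was higher, at 2.78 ± 0.358 CPM in mutant-labelled and 0.687 ± 0.0412 CPM in control libraries (1.46 ± 0.14, adjusted p = 8.85e-07). Of 16 genes 8 were lower and 1 was higher, with a median of -0.23.

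In fat storage and fat burning, too, more genes were lower than higher. Of 18 genes that build, coat or break down triglyceride, 9 were lower and 2 higher. fu12, an enzyme of phosphatidic acid synthesis, had 97.1, 110.3, 99.0 and 101 CPM in mutant-labelled libraries, against 163, 161, 174 and 167 CPM in control libraries. CG1942 (Dgat2), named for the last step of triglyceride synthesis, was lower, at -1.41 ± 0.10 and mag, a lipase that acts in the gut, at -0.89 ± 0.13 (adjusted p = 5.14e-08 and 4.35e-05). Jabba, a protein of lipid droplets, was higher, at 97.1, 106, 104 and 114 CPM in mutant-labelled libraries, against 49.1, 56.6, 66.7 and 73.9 CPM in control libraries. The groups did not overlap for any of these 4 genes. Without mutant-labelled library 3 and control library 4, 5 genes of the list were called lower, and the higher count was 1 without mutant-labelled library 1 or control library 2 or 3. In fatty acid oxidation 11 of 18 genes were lower and 1 was higher. whd, the carnitine palmitoyltransferase that admits fatty acids to mitochondria, had 25.9, 23.9, 29.8 and 30.6 CPM in mutant-labelled libraries, against 43.2, 50.5, 50.1 and 63.0 CPM in control libraries. The trifunctional protein gene Mtpalpha was lower, at -0.37 ± 0.03, the thiolase yip2 at -0.53 ± 0.07, and the peroxisomal oxidase Acox57D-d at -1.11 ± 0.09 (adjusted p = 3.20e-07, 2.08e-05 and 8.68e-08). Of 8 lipoproteins, their receptors and lipocalins, 4 were lower, Karl most at -0.87 ± 0.10, and the lipocalin NLaz was the single higher gene at 0.75 ± 0.17.

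**Figure D4:**
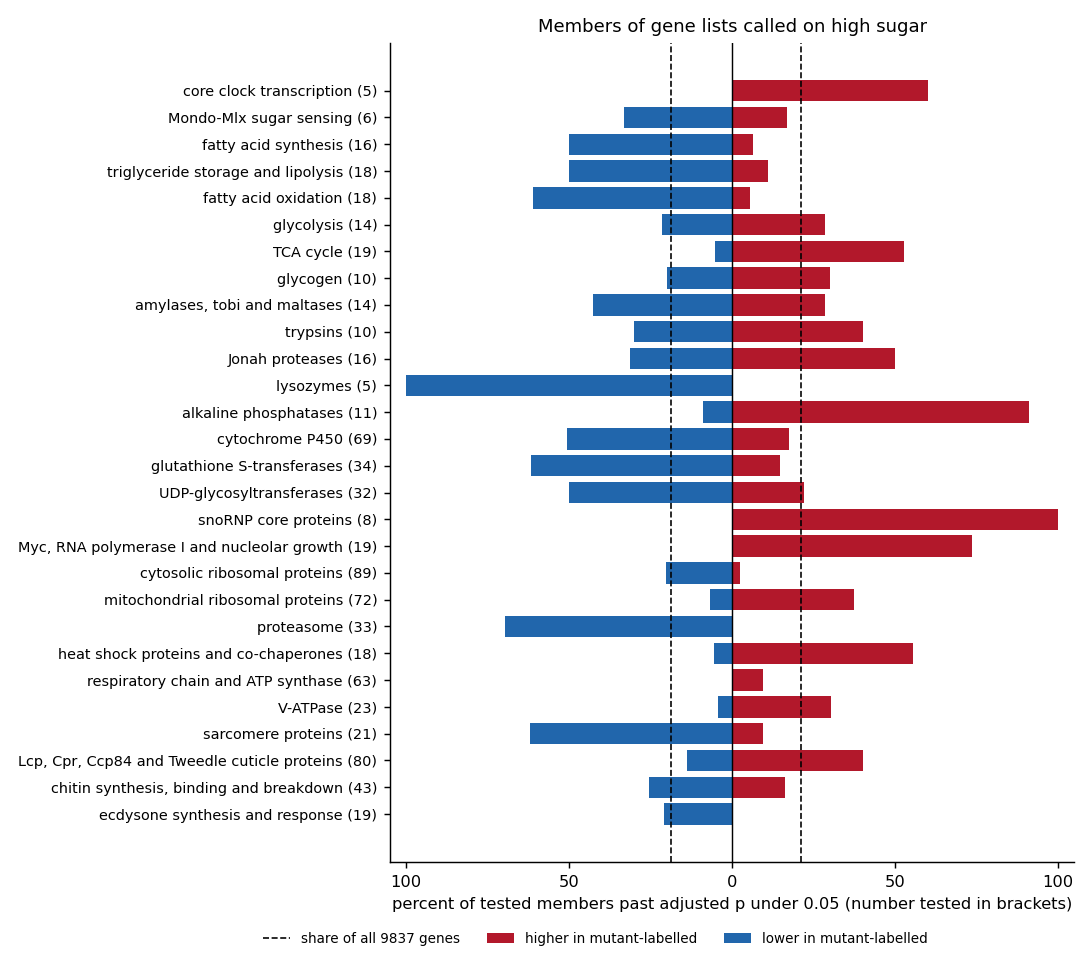
For 28 gene lists, the percent of tested members called higher (red, right) and lower (blue, left) in mutant-labelled larvae on high sugar, with the number tested in brackets and dashed lines at the share of all 9837 genes, 21.1% higher and 18.9% lower. The snoRNP and alkaline phosphatase lists lie far to the right, and the lysozymes and proteasome far to the left.

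Central carbon metabolism was mixed. Gpo-1 and Gpdh form the glycerophosphate shuttle, which carries electrons from cytosolic NADH into mitochondria. Gpo-1, the mitochondrial enzyme, had 3179, 3217, 3252 and 3276 CPM in mutant-labelled libraries, against 1929.7, 1989, 1901 and 1925 CPM in control libraries. Gpdh, the cytosolic enzyme, had 2193, 2263, 2026 and 2229.7 CPM in mutant-labelled libraries, against 3489, 3475, 3378 and 3741 CPM in control libraries. The pair moved in opposite directions without overlap, by 0.74 ± 0.05 and -0.69 ± 0.06 (adjusted p = 1.38e-08 and 1.45e-07). Idh, the NADP-dependent isocitrate dehydrogenase, was lower, at -0.61 ± 0.05 (adjusted p = 1.01e-07). Of 9 genes of this redox list 2 were higher and 3 lower. In glycolysis the aldolase gene Ald and Gapdh2 were lower, at -0.32 ± 0.04 and -0.31 ± 0.05. Pfrx, whose product sets the level of a glycolytic activator, and ImpL3, the lactate dehydrogenase, were higher by 0.27 ± 0.05 and 0.25 ± 0.06 (adjusted p = 1.78e-05, 5.82e-05, 4.20e-04 and 0.00188, in the order named). In total 4 of 14 were higher and 3 lower. Pgd and Zw, which make NADPH in the oxidative branch of the pentose phosphate pathway, were lower, at -0.39 ± 0.08 and -0.24 ± 0.08, and the other 5 of 7 genes did not pass. The call of Zw was lost without mutant-labelled library 3 or control library 1, 3 or 4, left out singly (adjusted p from 0.0552 to 0.0909), without mutant-labelled library 3 and control library 4 together (adjusted p = 0.145) and with roX1 as a covariate (adjusted p = 0.12).

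The phosphoenolpyruvate carboxykinase relative CG10924 (Pepck2) had 9.53, 10.8, 11.04 and 10.3 CPM in mutant-labelled libraries, against 49.1, 50.6, 56.2 and 67.3 CPM in control libraries. The groups lay far apart, a difference of -2.36 ± 0.22 (adjusted p = 5.27e-07). fbp, the fructose bisphosphatase of gluconeogenesis, was higher by 0.17 ± 0.04, and PCB, the pyruvate carboxylase, differed by 0.04 ± 0.06 without passing (adjusted p = 0.00457 and 0.632). Genes of the TCA cycle were mostly higher, by small amounts. Nc73EF, a subunit of the oxoglutarate dehydrogenase, had 733, 717, 771 and 716 CPM in mutant-labelled libraries, against 508, 547, 523 and 524 CPM in control libraries. Its partner CG5214 was higher by 0.35 ± 0.04 and the succinate dehydrogenase gene SdhA by 0.20 ± 0.03 (adjusted p = 2.34e-07 for Nc73EF, 6.90e-06 and 1.06e-04). Of 19 TCA genes 10 were higher and 1 lower, the exception being Idh, with a median of 0.12. In the respiratory chain and ATP synthase 6 of 63 were higher and 0 lower, a higher share below the 21.1% of all genes. The higher count was 10 or 3 without mutant-labelled library 3 or 4, and 2 or 3 without control library 2 or 3.

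Among sugar stores and transport, UGP, which makes the UDP-glucose used for glycogen and trehalose, had 329, 323, 329 and 338 CPM in mutant-labelled libraries, against 229, 224, 223 and 236 CPM in control libraries. It was higher by 0.53 ± 0.04 (adjusted p = 3.85e-08) with no overlap. Glycogen synthase (GlyS) was lower, at -0.27 ± 0.05 and the branching enzyme AGBE higher by 0.27 ± 0.06 (adjusted p = 3.72e-04 and 0.0033). Of 10 glycogen genes 3 were higher and 2 lower. Trehalase (Treh), which splits the blood sugar trehalose, was at 225 ± 14.9 CPM in mutant-labelled and 159.5 ± 10.2 CPM in control libraries, a difference of 0.50 ± 0.06 (adjusted p = 5.89e-06). The transporters sut1 and Tret1-1 were higher by 0.52 ± 0.09 and 0.44 ± 0.09, and the sorbitol dehydrogenase Sodh-2 was lower, at -0.31 ± 0.07. In that list 4 of 10 were higher and 2 lower, the lower count being 1 without mutant-labelled library 4 or control library 2 or 4.

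Many detoxification genes were lower, some by a large amount. Cyp28d2 had 5.55, 4.93, 5.004 and 5.34 CPM in mutant-labelled libraries, against 117, 127, 104 and 157 CPM in control libraries. Cyp6a2, a cytochrome P450 linked to insecticide resistance, had 11.98, 10.8, 9.85 and 11.2 CPM in mutant-labelled libraries, against 117, 113, 98.6 and 113 CPM in control libraries. The genotypes lay far apart for both, at -4.46 ± 0.13 and -3.27 ± 0.21 (adjusted p = 6.10e-13 and 8.95e-09). Cyp12d1-d was at 0 in all 4 mutant-labelled libraries and at 4.72, 3.97, 4.78 and 4.45 CPM in control libraries. Against a floor of 3 steps of the scale over the group, 1 step being 1 read if the depth given above is right, this is at least 294-fold lower. Its near-identical copy Cyp12d1-p had 0.0851, 0.0607, 0.0397 and 0.0992 CPM in mutant-labelled libraries, against 5.55, 5.43, 5.63 and 5.75 CPM in control libraries, and reads of these copies cannot be assigned with certainty. Cyp6a17 was lower, at -1.97 ± 0.10 (adjusted p = 5.20e-10). Of 69 P450 genes 35 were lower and 12 higher, with a median of -0.21.

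Enzymes that attach glutathione or sugars to toxins were lower more often than higher. GstE7 had 68.2, 64.5, 53.1 and 63.3 CPM in mutant-labelled libraries, against 205, 189.8, 163 and 184 CPM in control libraries. GstE1 had 20.8, 19.0, 20.5 and 19.6 CPM in mutant-labelled libraries, against 77.1, 77.7, 74.3 and 69.6 CPM in control libraries. GstE5 and GstD8 were lower, at -2.03 ± 0.08 and -1.79 ± 0.17, and none of the 4 overlapped between genotypes (adjusted p = 1.38e-08, 8.32e-08, 2.12e-11 and 6.68e-07 in the order named). Of 34 glutathione S-transferases 21 were lower and 5 higher, with a median of -0.38. Of 32 UDP-glycosyltransferases 16 were lower and 7 higher. Ugt86Dh was lower, at -1.57 ± 0.13 and Ugt58Fa was higher by 1.11 ± 0.07 (adjusted p = 1.64e-07 and 1.44e-08). The lower shares were 50.7%, 61.8% and 50% for these 3 families, against 18.9% of all tested genes.

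Genes of ribosome production were higher together. The snoRNP core proteins act in the chemical modification of ribosomal RNA in the nucleolus. nop5 had 283, 249.6, 277 and 271 CPM in mutant-labelled libraries, against 164, 181, 199 and 157 CPM in control libraries. Nop56 had 197, 188, 199 and 187 CPM in mutant-labelled libraries, against 119, 127, 138 and 109 CPM in control libraries. Fibrillarin (Fib), the methyltransferase of these particles, had 203, 197, 205 and 191 CPM in mutant-labelled libraries, against 125, 136, 153 and 125 CPM in control libraries. In all 3 every mutant-labelled library was above every control library, at 0.63 ± 0.08, 0.65 ± 0.09 and 0.56 ± 0.09 (adjusted p = 2.56e-05, 2.77e-05 and 1.17e-04). All 8 tested genes of the list were called higher, with a median of 0.55. Myc, the growth regulator that drives this programme, had 165, 172, 171 and 142 CPM in mutant-labelled libraries, against 102, 100.1, 113 and 104 CPM in control libraries (0.63 ± 0.07, adjusted p = 7.91e-06). RpI135, a large subunit of RNA polymerase I, was higher by 0.84 ± 0.10, the export adaptor Nmd3 by 0.58 ± 0.07 and nclb, a chromatin protein needed for nucleolar function, by 0.77 ± 0.09 (adjusted p = 9.68e-06, 7.72e-06 and 6.03e-06). Of 19 genes of this list 14 were higher and 0 lower (1 lower without mutant-labelled library 1 or control library 1 or 4), with a median of 0.52.

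The cytosolic ribosomal protein genes were not higher together. Of 89 such genes 18 were lower and 2 higher, and the lower share of 20.2% was near the 18.9% of all genes. RpL13 was lower, at -0.23 ± 0.04 and RpS6 at -0.20 ± 0.04 (adjusted p = 3.58e-04 and 0.00104). Leaving out control library 4 left 11 lower, and leaving out mutant-labelled library 3 and control library 4 together left 9. Of 72 mitochondrial ribosomal protein genes 27 were higher and 5 lower, mRpS6 most surely at 0.50 ± 0.06 (adjusted p = 1.23e-05). Without mutant-labelled library 2 or control library 2 the higher count was 15 or 16. The proteasome, which degrades tagged proteins, was lower by small amounts. Rpn5 had 88.8, 90.3, 86.9 and 89.4 CPM in mutant-labelled libraries, against 119.6, 114, 106 and 112 CPM in control libraries. The difference was -0.34 ± 0.05 (adjusted p = 6.06e-05), without overlap, and Prosalpha6 and Prosbeta7 of the core particle were lower, at -0.27 ± 0.04 and -0.23 ± 0.04. Of 33 proteasome genes 23 were lower and 0 higher, with a median of -0.19.

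Chaperones were higher in part. Hsp70Bb, a heat-inducible chaperone gene with near-identical copies, averaged 14.9 ± 1.46 CPM in mutant-labelled and 0.264 ± 0.117 CPM in control libraries (SD, n = 4 each). Hsp83, the fly Hsp90, had 2135, 2223, 2233 and 1793 CPM in mutant-labelled libraries, against 1369, 1373, 1178 and 985 CPM in control libraries. It was higher by 0.78 ± 0.12 (adjusted p = 7.24e-05) with no overlap. Of 18 heat shock proteins and co-chaperones 10 were higher and 1 lower. The higher count was 6 without mutant-labelled library 2 and 2 without mutant-labelled library 3 and control library 4. The 1 lower gene did not pass without mutant-labelled library 1, 2 or 4 or control library 1, 2 or 3, left out singly. Of 23 V-ATPase genes, the proton pump of gut, tubule and lysosome, 7 were higher and 1 lower. Vha16-1 was higher by 0.24 ± 0.04 and Vha36-3 was lower, at -0.76 ± 0.06 (adjusted p = 1.61e-04 and 9.21e-08). Autophagy and lysosomal protease genes had 4 of 24 higher, Atg101 at 0.69 ± 0.08, and 4 lower, the cathepsin gene CtsB1 at -0.57 ± 0.08.

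Amino acid metabolism changed in both directions. In the glutamate and proline list 6 of 12 were higher and 2 lower, the glutamine synthetase Gs1 most at -0.69 ± 0.12. The lower count was 1 without mutant-labelled library 3 or control library 4. Glutamate dehydrogenase (Gdh) had 1215, 1249.8, 1268 and 1193 CPM in mutant-labelled libraries, against 848, 878, 870.2 and 834 CPM in control libraries. It was higher by 0.52 ± 0.06, ornithine aminotransferase (Oat) by 0.74 ± 0.08 and the proline dehydrogenase slgA by 0.31 ± 0.04 (adjusted p = 2.55e-06, 2.51e-06 and 4.28e-05). aay, the phosphoserine phosphatase of serine synthesis, had 207, 202, 176 and 187 CPM in mutant-labelled libraries, against 359.7, 403, 403 and 448 CPM in control libraries. The groups did not overlap (-1.06 ± 0.17, adjusted p = 1.30e-04). In one-carbon metabolism CG3011 (Shmt), named for a serine hydroxymethyltransferase, was lower, at -0.56 ± 0.05. Sarcosine dehydrogenase (Sardh) was higher by 0.96 ± 0.12 and the folate enzyme Nmdmc by 0.62 ± 0.08 (adjusted p = 8.92e-06 and 1.11e-05). Of 16 genes 3 were higher and 6 lower. Henna (Hn), which turns phenylalanine into tyrosine, was lower, at -0.48 ± 0.06 and CG11796 (Hpd), of tyrosine breakdown, at -0.59 ± 0.07. In that list 2 of 7 were higher and 3 lower.

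Purine and pigment genes included w, named above. In the kynurenine pathway, which makes brown eye pigment from tryptophan, cn, the kynurenine monooxygenase, had 19.8, 18.5, 16.9 and 20.2 CPM in mutant-labelled libraries, against 8.71, 8.25, 9.35 and 9.71 CPM in control libraries. It was higher by 1.02 ± 0.09 (adjusted p = 2.09e-07), while st, the partner of w in pigment transport, was lower, at -0.40 ± 0.09 (adjusted p = 0.00281). Of 7 genes 5 were higher and 1 lower. In purine synthesis ade3 and Prat, which act in its early steps, were higher by 0.42 ± 0.05 and 0.35 ± 0.06 (adjusted p = 2.25e-05 and 2.51e-04). Urate oxidase (Uro) was low throughout, at 0.0638, 0.586, 0.536 and 0.238 CPM in mutant-labelled and 1.46, 4.44, 1.76 and 0.851 CPM in control libraries, with no overlap (-1.49 ± 0.32, adjusted p = 0.00166). Of 14 genes 4 were higher and 3 lower.

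Metal and immune genes were lower in part. The metallothioneins, small proteins that bind copper, zinc and cadmium, held 4 lower and 2 higher genes of 7. MtnB had 47.3, 55.8, 46.1 and 47.2 CPM in mutant-labelled libraries, against 93.6, 84.0, 81.7 and 82.8 CPM in control libraries. It was lower, at -0.80 ± 0.14 and MtnD at -0.86 ± 0.16 (adjusted p = 3.68e-04 and 3.73e-04), and the lower count was 2 without control library 1. The higher count, which included CG43222 at 0.58 ± 0.11, was 1 without mutant-labelled library 2 or 3 or control library 1, 2 or 3. Of 17 antimicrobial peptides and regulators of the IMD pathway 6 were lower and 2 higher. Drsl2, a drosomycin-like gene, was at 0, 0.0202, 0.0199 and 0.0198 CPM in mutant-labelled libraries, a total of 3 steps of the scale, and at 11.1, 12.2, 7.01 and 9.32 CPM in control libraries. PGRP-SD, which senses bacterial cell wall for the IMD pathway, was higher, at 6.24 ± 1.16 CPM in mutant-labelled and 0.964 ± 0.269 CPM in control libraries (2.21 ± 0.14, adjusted p = 8.22e-09). PGRP-SC1b and PGRP-SC2, amidases that digest that wall, went in opposite directions, at -2.83 ± 0.21 and 1.18 ± 0.17 (adjusted p = 4.15e-08 and 6.55e-05). NimC1, a phagocytosis receptor of hemocytes, was lower, at 1.32 ± 0.121 CPM in mutant-labelled and 6.34 ± 0.606 CPM in control libraries (-1.91 ± 0.12, adjusted p = 4.64e-09). Hml, the usual hemocyte marker, differed by 0.15 ± 0.12 without passing (adjusted p = 0.366), and of 9 hemocyte markers 1, Sr-CI at 0.42 ± 0.10, was higher and 2 were lower. Their summed level was 348 to 446 CPM in mutant-labelled libraries and 332 to 480.2 CPM in control libraries.

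Muscle genes were lower by small amounts. Mlc1, a myosin light chain, had 2521, 2566, 2503 and 2445 CPM in mutant-labelled libraries, against 3354, 3187, 3252 and 3274 CPM in control libraries. The troponin gene up had 3217, 3299, 3409 and 3121 CPM in mutant-labelled libraries, against 4153, 4200.2, 4239.6 and 4149.9 CPM in control libraries. Both were without overlap, at -0.38 ± 0.03 and -0.36 ± 0.04 (adjusted p = 4.51e-07 and 2.57e-06). Mlc2 and Tm1, another light chain and a tropomyosin, were lower, at -0.33 ± 0.04 and -0.28 ± 0.03. Of 21 sarcomere genes 13 were lower and 2 higher, with a median of -0.24. Of 10 muscle markers 7 were lower and 1 was higher, and their summed level was 43915 to 49574 CPM in mutant-labelled libraries and 52111 to 57794 CPM in control libraries. All 10 are also in the sarcomere list, so their count is not separate evidence. The part of muscle mass in the sarcomere values was not tested.

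Cuticle genes were more often higher. Of 80 cuticle protein genes 32 were higher and 11 lower. Cpr67Fa1 had 27.2, 24.0, 28.6 and 25.6 CPM in mutant-labelled libraries, against 136, 131, 174 and 173 CPM in control libraries. Its near-identical neighbour Cpr67Fa2 had 341, 280.3, 359.9 and 319 CPM in mutant-labelled libraries, against 118, 119, 149 and 145 CPM in control libraries. They went opposite ways without overlap, at -2.51 ± 0.10 and 1.29 ± 0.09, but reads of such copies cannot be assigned with certainty. Lcp1, a larval cuticle protein, was lower, at -2.18 ± 0.15 (adjusted p = 1.42e-08). With mutant-labelled library 3 and control library 4 left out the counts were 35 higher and 11 lower. Within the Tweedle family 1 of 15 was higher, a count that ran from 0 to 2 when single libraries were left out, and 1 lower, TwdlX at -0.48 ± 0.08 (adjusted p = 1.25e-04). None of 6 Osiris genes passed, and 0 had an unadjusted limma p under 0.05. Of 43 chitin genes 11 were lower (7 without mutant-labelled library 3 and control library 4) and 7 were higher. obst-J, a chitin-binding protein, had 49.4, 43.5, 43.9 and 46.8 CPM in mutant-labelled libraries, against 82.6, 85.7, 84.0 and 83.4 CPM in control libraries. mmy, which makes the precursor of chitin, was lower, at -0.45 ± 0.07, and the chitinase Cht4 higher by 1.46 ± 0.24 (adjusted p = 1.78e-04 and 2.08e-04).

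Of 19 genes of ecdysone, the moulting steroid, 4 were lower and 0 higher, a lower share of 21.1%. sad and spok, enzymes of its synthesis in the prothoracic gland, had 2.49 ± 0.152 and 11.1 ± 0.945 CPM in mutant-labelled and 5.33 ± 0.681 and 15.7 ± 1.01 CPM in control libraries. They were lower, at -0.96 ± 0.09 and -0.48 ± 0.08 without overlap (adjusted p = 4.51e-07 and 1.64e-04), and shd, which activates the hormone in other tissues, at -0.30 ± 0.09 (adjusted p = 0.0183), a call lost without mutant-labelled library 3 (adjusted p = 0.0555). The receptor gene EcR overlapped between genotypes and differed by -0.19 ± 0.10 (adjusted p = 0.12), though it passed as lower without that library (adjusted p = 0.00815), without mutant-labelled library 3 and control library 4 together (adjusted p = 0.015), after quantile normalization (adjusted p = 0.0481), with roX1 as a covariate (adjusted p = 0.0302) and with array weights (adjusted p = 0.0259).

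Neuron markers gave few calls. Gad1, the enzyme that makes the transmitter GABA, was the single called gene of 12 neuron markers, higher by 0.28 ± 0.06 (adjusted p = 0.00202). The glial gene axo was at 49.0 ± 2.97 CPM in mutant-labelled and 25.3 ± 0.934 CPM in control libraries (0.94 ± 0.07, adjusted p = 5.46e-08), and nrv2 was lower, at -0.42 ± 0.04 (adjusted p = 2.94e-07). The defining glial factor repo differed by 0.13 ± 0.11 without passing (adjusted p = 0.405). In all, 1 of 7 glia markers was higher (14.3%) and 2 were lower (28.6%), against 21.1% and 18.9% of all tested genes. Of 16 peptides of gut and brain 2 were higher, Mip at 0.48 ± 0.06 and NPF at 0.42 ± 0.09, and 2 lower, CCHa2 and AstA. The call of AstA was lost without mutant-labelled library 3 or control library 3 (adjusted p = 0.0642 or 0.0664), without mutant-labelled library 3 and control library 4 together (adjusted p = 0.117) and with roX1 as a covariate (adjusted p = 0.169).

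Markers of other cell types were also read, to check the labelled tissue. Whole larvae should hold all of them, and each list had members past the level filter. This is a weak check, because only such members were read. Of the markers listed, 4 for fat body and 2 for oenocytes were absent from the deposited values. Of 5 fat body markers 1, the storage protein gene Lsp1gamma at -0.94 ± 0.22, was lower and none higher, with the abundant lipoprotein gene Rfabg at 6182 ± 573 CPM in mutant-labelled and 5660.2 ± 378 CPM in control libraries. Of 4 oenocyte markers 2 were lower, FASN2 among them at -1.02 ± 0.12. Of 8 Malpighian tubule markers 3 were lower, of 7 tracheal markers 1 was lower, and of 8 enteroendocrine markers 1 was higher and 2 were lower. Of 8 epidermal markers 1 was higher and 2 were lower, and of 6 imaginal disc markers 1 was higher and 1 was lower. Counts in the hemocyte, glia, enteroendocrine, tracheal, epidermal, disc and Malpighian tubule lists moved by 1 or 2 genes when single libraries were left out, and each of the 8 libraries moved at least 1 of them. None of 8 germ line markers passed, and 0 had an unadjusted limma p under 0.05.

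The same genotype comparison on low sugar was fitted with the other 8 libraries, and the interaction, the difference on high sugar minus that on low sugar, tests whether the 2 differ. On low sugar 4313 genes (43.8%) passed, 2268 higher (23.1%) and 2045 lower (20.8%). Of the 2073 genes higher on high sugar, 1141 were also higher on low sugar and 41 were lower. Of the 1861 lower on high sugar, 1128 were also lower and 90 were higher on low sugar. The interaction was called for 1659 genes (16.9%), with 779 positive (7.92%) and 880 negative (8.95%). Of the 3934 genes called on high sugar it was called for 1046 (26.6%). These interaction counts depend on single libraries. Without mutant-labelled library 3 and control library 4 of the high sugar groups, 971 genes passed, and without mutant-labelled library 1 on low sugar 1201 were positive.

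Nucleolar genes were among those whose genotype difference depended on diet. Nop56 differed by 0.65 ± 0.09 on high sugar and -0.13 ± 0.09 on low sugar, an interaction of 0.77 ± 0.12 (adjusted p = 9.58e-04). On low sugar it averaged 332 ± 42.9 CPM in mutant-labelled and 361 ± 29.4 CPM in control libraries, both averages above each of the 8 libraries on high sugar. The interaction was called and positive for 7 of 8 snoRNP genes and for 14 of 19 genes of Myc, RNA polymerase I and nucleolar growth, against 7.92% of all tested genes. Without mutant-labelled library 3 and control library 4 of the high sugar groups these counts were 7 and 6, and without mutant-labelled library 1 on low sugar they were 8 and 14. Myc itself was higher on both diets, by 0.63 ± 0.07 on high and 0.47 ± 0.07 on low sugar, and its interaction did not pass (adjusted p = 0.331). Detoxification and fat genes held negative interactions: 15 of 34 glutathione S-transferases, 22 of 69 P450 genes, 7 of 18 genes of fatty acid oxidation and 7 of 16 of fatty acid synthesis, against 8.95% of all genes. GstD8 differed by -1.79 ± 0.17 on high and 0.13 ± 0.17 on low sugar (interaction adjusted p = 1.29e-04). Chitin genes had 14 negative interactions and 1 positive of 43. Alkaline phosphatases had 3 positive and 1 negative of 11, or 5 positive and 1 negative without mutant-labelled library 1 on low sugar. Without mutant-labelled library 3 and control library 4, the negative counts were 12 for glutathione S-transferases, 14 for P450 genes, 4 for fatty acid oxidation, 4 for fatty acid synthesis and 12 for chitin.

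**Figure D5:**
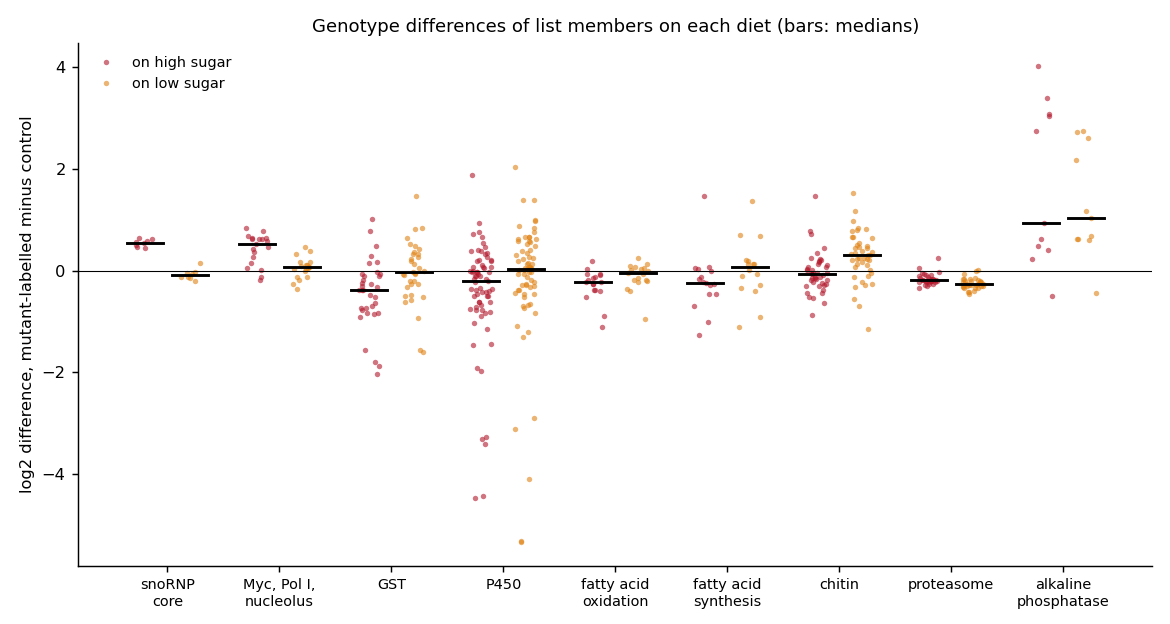
Log2 difference, mutant-labelled minus control, of each tested member of 9 gene lists on high sugar (red) and on low sugar (orange), with black bars at the medians. The snoRNP median is 0.55 on high and -0.09 on low sugar, while that of the proteasome is below 0 on both diets, at -0.19 and -0.26.

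Interactions were ranked by size among called genes with a mean of at least 5 CPM in the highest of the 4 groups. The 6 most negative were CG10924, CG5892, CR45190, CG3348, Lcp2 and MtnC. CG10924 averaged 10.4 ± 0.675 CPM in mutant-labelled and 55.8 ± 8.25 CPM in control larvae on high sugar, and 15.7 ± 2.36 CPM in mutant-labelled and 11.9 ± 5.54 CPM in control larvae on low sugar. It was lower, at -2.36 ± 0.22 on high sugar and differed by 0.47 ± 0.22 on low sugar, an interaction of -2.83 ± 0.30 (adjusted p = 3.50e-05). CG5892 and CG3348 had interactions of -2.82 ± 0.44 and -2.16 ± 0.18, the noncoding RNA CR45190 of -2.48 ± 0.22, Lcp2 of -2.11 ± 0.21 and MtnC of -2.04 ± 0.23. On high sugar these 5 genes differed by 0.75 ± 0.31, 0.65 ± 0.13, -0.62 ± 0.16, -1.22 ± 0.15 and -0.54 ± 0.16 in the order just given. Of these, CG5892 did not pass on high sugar in the reported fit, though it did in 6 of the alternatives: without control library 4, without mutant-labelled library 3 and control library 4 together, with roX1 as a covariate, with a pseudocount of 1, in only the 8 high sugar libraries and with array weights (adjusted p from 0.00858 to 0.0421). MtnC did not pass without control library 1 (adjusted p = 0.0528), without mutant-labelled library 3 and control library 4 together (adjusted p = 0.0624) or with roX1 as a covariate (adjusted p = 0.107). CR45190 did not pass without mutant-labelled library 3 and control library 4 together (adjusted p = 0.0559). The 6 most positive were CG14422, CG14424, CG32793, CG13983, CG3598 and CG3546, with interactions from 2.63 ± 0.70 for CG3546 to 7.32 ± 0.69 for CG14422. CG14422 was at 0.194 ± 0.189 CPM in mutant-labelled and 0.212 ± 0.130 CPM in control larvae on high sugar, and at 1.85 ± 2.12 CPM in mutant-labelled and 339.6 ± 192 CPM in control larvae on low sugar. It met the level of 5 CPM only in control larvae on low sugar. With both genotypes near 0 on high sugar, its interaction rests on the low sugar difference. On high sugar CG14422 differed by -0.06 ± 0.49 and CG14424 differed by -1.07 ± 0.54 (adjusted p = 0.937 and 0.135), and the other 4 of these genes did not pass on that diet in the reported fit. CG3598 passed as lower without control library 3, without control library 4, without mutant-labelled library 3 and control library 4 together, with roX1 as a covariate, with a pseudocount of 0.1 and with array weights (adjusted p from 0.01 to 0.0448). CG32793 passed with array weights (adjusted p = 0.0286).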

How the data were processed

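RNA-seq libraries from whole larvae were rRNA-depleted, stranded and sequenced as 75 bp single reads in 2 technical runs, per the labels' protocols. The deposited table gives 1 signal value per gene and library, which the authors call CPM. In 9 of 16 libraries the column sums to over 1e+06, so the total used for scaling is not the sum of the listed genes. Trimmomatic, TopHat2 2.1.0, HTSeq and limma were used, per the submitters' processing notes. The build and annotation behind the counts, and any gene filter, stand as not given in the sources used here. Every value is a whole multiple of 1 step per library, within 1e-06 of a step. If 1 step is 1 read, listed genes hold 44948120 to 54194149 reads per library, above the mean depth the labels give, so a step may not be a single read. They were not tested as counts, because only 2 of 16 columns held 100 or more low values with which to check the recovery. The table also holds the authors' own log2 coefficients, p-value columns and moderated test score columns, deposited by the authors with no model stated, and these were not used.

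The test was limma (3.58.1, R 4.3.3) on log2(CPM + 0.5), for genes of at least 1 CPM in at least 4 of 16 libraries. It fitted 4 group means over 16 libraries, with a trend in the spread (12 residual and 2.97 prior degrees of freedom) and Benjamini-Hochberg adjustment over 9837 genes. Adjusted p-values printed without a tool name are from this fit. Because the table is not of raw counts, no count test was run.

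Gene positions are from Ensembl release 115 (BDGP6.54), matched by gene ID for 9728 of 9863 listed genes and used to place genes along the chromosomes. Members and gene lists were chosen with earlier results of these data known. Genes were named by rule: clock and sugar genes, the 12 largest changes each way of at least 5 CPM without overlap, up to 4 of smallest adjusted p per list, and the 6 largest interactions each way. Of the 214 genes named, 183 follow it, and the other 31 were named for their role or position after their values were seen. A pattern in the lysozyme list that also took in the gene of a tRNA synthetase was corrected. Replicates were grouped by the labels. Alternatives were other pseudocounts, filters, scalings and spreads, a replicate block, covariates and left-out libraries.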

Additional observations from a re-analysis of the deposited data

Results flagged for a closer look

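Of the genes named in the report, those below had a genotype difference on high sugar that differed from the one on low sugar by limma's interaction term (adjusted p under 0.05). Each value is the log2 difference on high sugar minus that on low sugar. The interaction counts lean on single libraries, as given in the report, and no explanation was tested.

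Growth genes had positive values, at 0.77 for Nop56, 0.66 for nop5, 0.59 for Fib, 0.55 for Nmd3, 0.51 for RpI135 and 0.39 for nclb. Each of these 6 was higher in mutant-labelled larvae on high sugar. Other genes higher there on that diet also had positive values: 1.83 for CG10474, 1.71 for CG3292, 1.28 for Alp2, 0.87 for CG3264, 1.21 for Hsp70Bb and 0.95 for PGRP-SD. So did the gut genes Jon65Ai at 0.72, Amy-d at 0.65 and Amy-p at 0.37, and the metabolic genes Jabba at 0.71, ImpL2 at 0.68, ImpL3 at 0.45, Nmdmc at 0.44, UGP at 0.41 and Oat at 0.36. Smaller positive values were found for axo at 0.41, CrebA at 0.39, CkIIalpha at 0.30 and Tsc1 at 0.21.

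In another set the mutant-labelled larvae were lower on both diets, by a smaller log2 difference on high sugar. These were CG10514 at 2.35, tobi at 1.40, CG34278 at 1.15, CG11892 at 1.03, LysE at 0.95, Cyp28d2 at 0.86 and LysD at 0.62. CG10514, tobi, CG11892 and LysD were under 1 CPM in every mutant-labelled library on high sugar. Their log2 differences there depend on the pseudocount and on the control level, so a smaller genotype effect cannot be read from them. The 6 genes of largest positive value were CG14422 at 7.32, CG14424 at 3.94, CG32793 at 3.35, CG13983 at 3.29, CG3598 at 2.82 and CG3546 at 2.63.

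Negative values include genes that were higher in mutant-labelled larvae on high sugar, but by less than on low sugar. Among these were Gpo-1, fbp, Pfrx, Gdh, epsilonTry, Jon44E, CAH1, FucTC, Gad1 and Pdp1. The 6 most negative values belonged to CG10924 at -2.83, CG5892 at -2.82, CR45190 at -2.48, CG3348 at -2.16, Lcp2 at -2.11 and MtnC at -2.04. Detoxification and metal genes were GstD8 at -1.92, GstE7 at -1.06, GstE5 at -0.42, Cyp6a17 at -0.66 and MtnB at -0.94. Among digestive and gut genes were Mal-A7 at -1.94, Mal-A8 at -1.68, Mal-A6 at -1.44, PGRP-SC1b at -1.85, epsilonTry at -1.05, deltaTry at -0.65, Jon74E at -0.79, Jon44E at -0.60 and CAH1 at -0.25. Fat genes were mag at -1.11, whd at -0.69, FASN2 at -0.68, yip2 at -0.55, fu12 at -0.53 and Mtpalpha at -0.20.

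In sugar and redox metabolism, values were -0.97 for Gpo-1, -0.78 for Idh, -0.65 for Sodh-2, -0.47 for Gpdh, -0.44 for fbp, -0.39 for Zw, -0.38 for Men and -0.31 for Men-b. PCB had -0.34, Pfrx -0.27 and Gapdh2 -0.23. In amino acid metabolism they were -1.64 for aay, -0.83 for CG11796, -0.78 for Gs1, -0.54 for Hn and -0.29 for Gdh. Cuticle and chitin genes were Lcp1 at -0.99, Cpr67Fa1 at -0.78, mmy at -0.69 and obst-J at -0.60. The remaining negative values belonged to ng2 at -1.09, ng1 at -1.02, FucTC at -0.56, Sesn at -0.49, Vha36-3 at -0.47, sad at -0.45, Gad1 at -0.35, nrv2 at -0.31, Smox at -0.26, Pdp1 at -0.24 and up at -0.20. Of these, ng2 was under 1 CPM in every mutant-labelled library on high sugar and ng1 was near that level. The values of both depend on the pseudocount and on the control level.

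One library lay far from the other 3 of its group in 28 of 428 group values examined, by Dixon's gap test, and chance alone flags about 1 in 20 groups. In mutant-labelled library 2 these were the CPM of ade3 (141), MtnB (55.8), MtnC (7.85), cyc (1.8), repo (7.56), Mondo (309), tobi (0.344) and GstD8 (15.5). In mutant-labelled library 3 they were Amy-p (11), Gs1 (585), sad (2.26), Zw (271) and Prat (39.3). Mutant-labelled library 1 stood out for spok (12.5) and CG14424 (0.192), and mutant-labelled library 4 for CG13983 (0.278). Drsl2 met the test at 0 in mutant-labelled library 1, where the other 3 libraries held 1 step of the scale each, so its gap shows no library standing apart. In control library 3 they were Idh (919), Gad1 (40.6), CG10592 (87.8), yip2 (96.4) and Lsp1gamma (1.9), and in control library 4 CG14120 (39.8), CG14851 (132) and CR45190 (50.7). Control library 2 stood out for st (13.6) and GstD8 (72.9), and control library 1 for CkIIalpha (175).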

How the results depend on the processing

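On high sugar the counts of genes higher and lower stayed within 1.5 times of those reported under every alternative run: other pseudocounts, filters, scalings, a robust spread, array weights, the 8 high sugar libraries alone, and each library left out. Without single high sugar libraries, 3450 to 3633 genes were called, 1826 to 1931 higher and 1624 to 1702 lower. The members of the gene lists called higher ran from 211 to 241, those called lower from 245 to 259, and the genes called within 1 Mb of cwo from 87 to 95. On low sugar, leaving out single libraries gave 3807 to 4850 calls, 2007 to 2533 higher and 1795 to 2317 lower.

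The interaction was less stable. Leaving out single libraries gave 1196 to 2451 calls, 534 to 1201 positive and 660 to 1250 negative. The 1201 positive came without mutant-labelled library 1 on low sugar. Without mutant-labelled library 3 and control library 4 on high sugar, 971 passed, 411 positive and 560 negative, in a fit of fewer samples. That setting, the Tweedle score and roX1 level as covariates and the array weights were chosen after seeing the data. Another scaling shifted the median difference of all genes by little, to 0.0122 with median-ratio factors and -0.0149 with quantile normalization.

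Of the 214 named genes, 187 kept direction and side of the threshold on high sugar in each of the 22 alternatives that tested them, the filters of 1 CPM in 8 and 5 CPM in 4 libraries testing 209 and 203 of them. Of the other 27, 6 changed sign in some setting, and none of the 6 passed in the fit reported. The values below are log2 differences. CG13983 was at 0.04858 with a pseudocount of 0.1 and ran from -0.4954 to 0.1488 when single libraries were left out. CG14422 ran from -0.1755 to 0.06381, and was at 0.2192 with roX1 as a covariate. CrebA was at -0.01784 with that covariate, and Hml at -0.01774 without the 2 libraries named above. bigmax was at -0.03697 after quantile normalization, at -0.003567 with the Tweedle covariate and from -0.05189 to 0.07352 without single libraries. fkh was at -0.03444, -0.005541 and -0.1053 after quantile normalization and with the Tweedle and roX1 covariates, and from -0.01423 to 0.02478 without single libraries. The cause of these changes was not tested.

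With the replicate number as a block, 4229 genes were called on high sugar, 2254 higher and 1975 lower, 4629 on low sugar, and 1949 for the interaction, 914 positive and 1035 negative. Of the named genes, CG3598 alone changed its call on high sugar, passing as lower (adjusted p = 0.033). The numbers do not show pairing: deviations of same-numbered samples correlated from -0.34 to 0.437 across genes, and not every sample correlated best with its own number. Depth was even across libraries, so it limits chiefly genes under 1 CPM, whose log2 differences depend on the pseudocount.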

Other observations

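Among 8 genes of dosage compensation and sex, which tell the X chromosomes of males from those of females, 1 was higher on high sugar (12.5%, against 21.1% of all tested genes) and none lower, 3 having an unadjusted limma p under 0.05. Their summed level ran from 355 to 473 CPM in mutant-labelled and from 281 to 418 CPM in control libraries, and their median log2 difference was 0.17, against 0.0025 over all tested genes. The called gene was roX2, and without mutant-labelled library 3 and control library 4 none was called.

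The 3 gluconeogenic genes tested, CG10924, fbp and PCB, all had a negative interaction. On low sugar 2 of the 3 were higher in mutant-labelled larvae, and on high sugar 1 was higher and 1 lower. Their summed level ran from 1544 to 1698 CPM in mutant-labelled and 1527 to 1660.3 CPM in control libraries on high sugar, and from 987 to 1176 CPM in mutant-labelled and 774 to 802 CPM in control libraries on low sugar. The sums overlapped between genotypes on high sugar and did not overlap on low sugar.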
